A study of Homo sapiens with 18 samples.

Results

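The 50 genes described here encode the machinery of the G2 phase and of mitosis: the spindle checkpoint, the kinetochore, the chromosomal passenger complex, mitotic kinases and cyclins, the proteins that start anaphase, the spindle and cytokinesis, and chromosome structure. They were taken from a named list, all 50 were found among the 19775 genes with a probe set annotated to that gene alone, and each was read from its probe set with the highest mean log2(intensity + 1) over the 18 arrays. The list was chosen with earlier results of these data known, so shares of its members beside all genes are descriptions. They fall into 9 role subgroups of 2 to 10 genes. The study asked how SKOV-3 cells, a human ovarian carcinoma line, respond when the luteinizing hormone receptor (LHR) is expressed and then activated by its ligand LH. LHR+ cells were stably transfected to express LHR and were incubated with LH at 50 ng/ml for 1, 4, 8 or 20 h (groups LH1, LH4, LH8 and LH20) or received no LH (group LHR+). The LHR- group is the parent SKOV-3 line, which the study's figure legends call mock-transfected, and each of the 6 groups has 3 independent replicates. The comparison of LHR+ with LHR- sets a selected stable transfectant beside its parent, and whether the LHR+ cells are a clone or a pool is not given in the sources used here. The groups that received LH have no LH-free companion at 1, 4, 8 or 20 h, so the effect of LH and of time in culture cannot be told apart.

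Genes of this kind are transcribed periodically, with transcripts and often proteins building up in G2 and in mitosis. The checkpoint kinases and their partners hold back the anaphase-promoting complex until kinetochores are attached to spindle microtubules, after which CDC20 activates that complex and securin and cyclin B are destroyed. Many of the promoters carry a cell cycle homology region (CHR), bound by the MuvB core as part of the repressive DREAM complex or of the activating complexes with B-MYB and FOXM1, and CCAAT boxes bound by NF-Y. Because the arrays read RNA from whole cultures, fewer cells in G2 and mitosis and less RNA per cell cannot be told apart.

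The RefSeq promoter windows, from 250 bases before to 50 bases after the annotated start on GRCh38.p14, could be matched for 42 of the 50 genes. The CHR core, spelled TTTGAA and searched on both strands, lay in 28 of the 42 windows (66.7%), against 15.4% of 27305 windows of all genes, and the CCAAT box (CCAAT, both strands) in 28 (66.7%) against 35.7%. Both motifs lay in 20 windows (47.6%), against 6.08% of all windows. The E2F core GCGGGAA lay in 5 (11.9%), against 6.56%. Of 36 copies of the CHR core in these windows, 24 started within 60 bases of the annotated start. The 6 promoters shown here belong to genes with different time courses, and each runs from 130 bases before to 20 bases after the start in lower case, with CHR cores and CCAAT boxes in capitals on either strand.
NDC80 (chr18:2571427-2571576, plus strand): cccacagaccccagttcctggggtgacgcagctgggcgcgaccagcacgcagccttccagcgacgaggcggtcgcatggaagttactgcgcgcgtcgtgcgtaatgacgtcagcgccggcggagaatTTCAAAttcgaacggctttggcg
PLK1 (chr16:23678759-23678908, plus strand): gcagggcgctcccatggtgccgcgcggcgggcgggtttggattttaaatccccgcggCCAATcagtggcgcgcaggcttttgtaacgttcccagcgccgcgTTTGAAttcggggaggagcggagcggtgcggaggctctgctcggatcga
CCNB2 (chr15:59105016-59105165, plus strand): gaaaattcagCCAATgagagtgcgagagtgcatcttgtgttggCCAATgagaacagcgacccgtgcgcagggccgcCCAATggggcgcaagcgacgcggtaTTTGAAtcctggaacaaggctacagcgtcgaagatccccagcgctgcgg
MKI67 (chr10:128126404-128126553, minus strand): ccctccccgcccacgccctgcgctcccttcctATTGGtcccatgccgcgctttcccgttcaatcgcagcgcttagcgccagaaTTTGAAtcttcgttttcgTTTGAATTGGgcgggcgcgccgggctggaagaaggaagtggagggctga
CENPI (chrX:101100928-101101077, plus strand): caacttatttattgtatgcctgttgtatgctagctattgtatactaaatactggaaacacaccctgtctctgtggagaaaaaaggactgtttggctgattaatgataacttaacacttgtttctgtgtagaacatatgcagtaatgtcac
MYBL2 (chr20:43666984-43667133, plus strand): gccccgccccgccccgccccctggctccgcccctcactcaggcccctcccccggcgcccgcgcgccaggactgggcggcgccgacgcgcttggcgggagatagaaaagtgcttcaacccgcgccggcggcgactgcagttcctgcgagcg
NDC80 has a CHR core on the opposite strand that starts 3 bases before the start, and PLK1 has a core 29 bases before the start with a CCAAT box upstream of it. CCNB2 has a core 29 bases before the start and 3 CCAAT boxes in this stretch, and MKI67 has 2 cores and 2 CCAAT boxes, of which 1 core and 1 box overlap. No copy of either motif was found in the windows of CENPI and MYBL2, which says only that these letters are not there.

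The median intensity of the 18 arrays lay between 46.9 and 57.9, and the log2 difference between the 3' and 5' GAPDH control probe sets lay between 0.488 and 0.776 in all arrays but LHR- replicate 2, where it was 1.22. The same difference for the ACTB control was larger, at 3.30 to 4.06 in the LHR- arrays and 2.84 to 3.69 in the others. Its part in the differences between groups or probe sets was not tested. Markers of the line and of epithelium (KRT8, KRT18, KRT19, ERBB2, PAX8 and VIM) were among the brighter genes in all groups, and 4 of the 10 on that list, among them EPCAM and MUC16, were dimmer than the median gene. The summed intensity of 3 leukocyte markers was 8.70 to 46.9 and that of 3 endothelial markers 16 to 59.0, all 6 dimmer than the median gene. The summed intensity of 5 stromal markers, most of it COL1A1, was 19545 to 21354 in LH20, 13459 to 17798 in the other LHR+ groups and 23630 to 24643 in LHR- cells, and its part in the differences between these groups was not tested. The probe set of LHCGR, which encodes LHR, read between 0.196 and 4.11 over all arrays, the transfected groups included, and whether it lies within the transfected sequence is not known here, so it does not check the LHR label.

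The 50 genes were bright. Of their probe sets, 49 exceeded the median gene, and the exception was INCENP, which read near background. Beside the 50 probe sets used, another 53 map to 27 of the genes. Intensities are on a linear scale and differ between probe sets for technical reasons, so levels of different genes are not compared. A gene was called when limma's p was under 0.05, the Benjamini-Hochberg adjusted p over all 19775 genes was under 0.1, the change was at least 2-fold and the 3 arrays of one group all lay above the 3 of the other. A gene is said to have been lower or higher, at any fold, when its adjusted p was under 0.1. Fold changes are given as log2 ± SE from the limma fit. Over the 50 genes (plot of all members by array) the median log2 intensity was 11.4 in the LHR+ arrays, 11.3 in LH1, 10.3 to 10.4 in LH4, 10.8 to 10.9 in LH8, 10.4 to 10.5 in LH20 and 11.8 to 11.9 in the LHR- arrays.

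**Figure D1:**
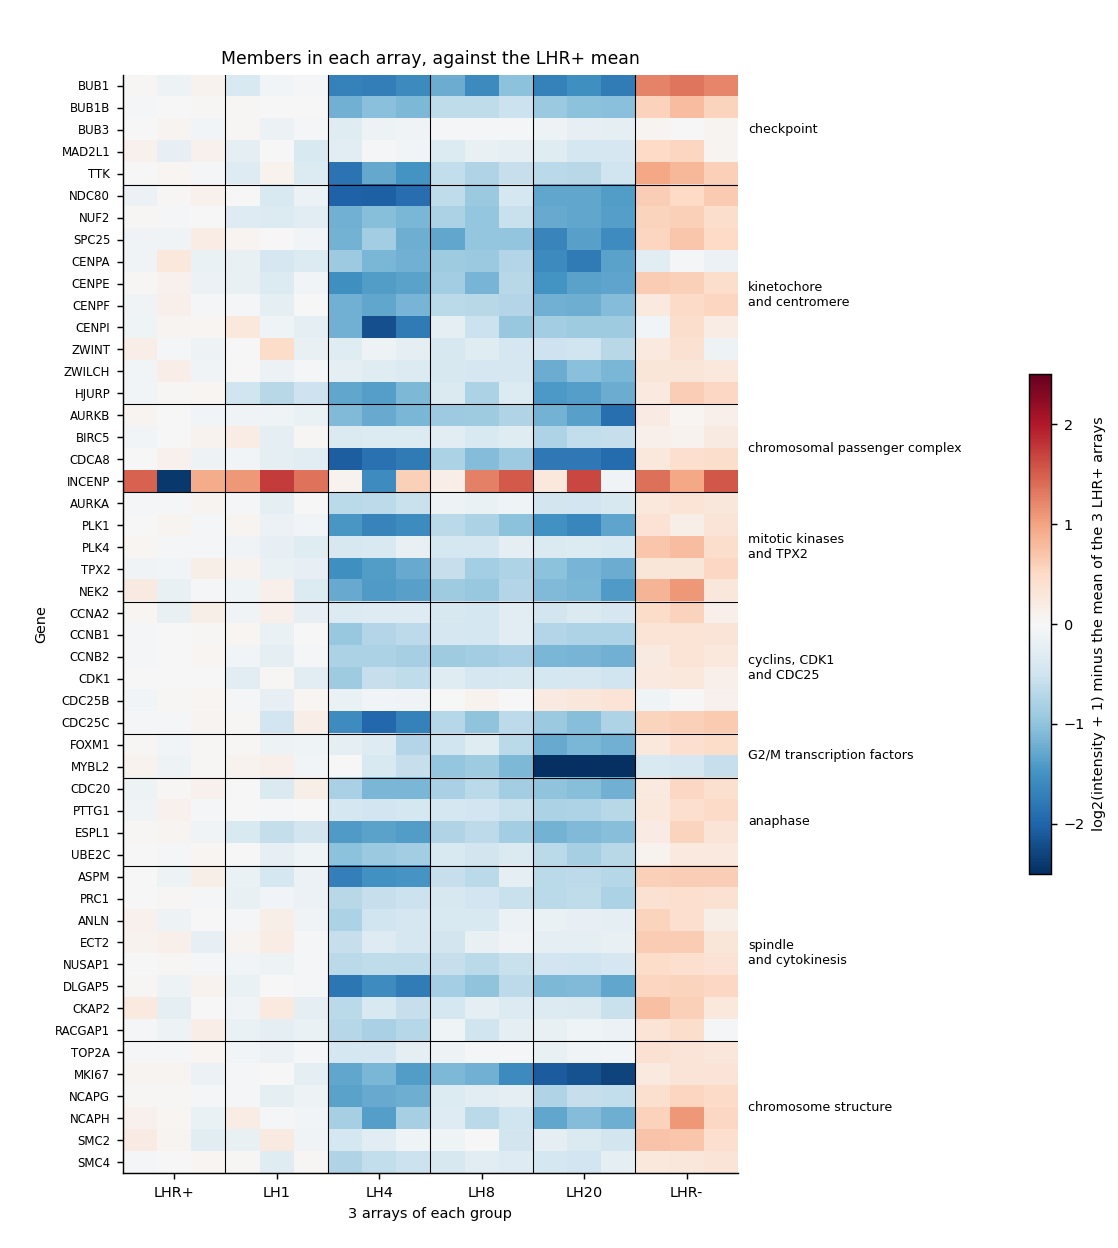
Each row is a gene, grouped by role, and each column an array. Colour shows log2(intensity + 1) minus the mean of the 3 LHR+ arrays, from -2.5 (blue) to 2.5 (red), with values beyond drawn in the end colours. Blue prevails in LH4, LH8 and LH20 and is paler in LH8, and for 46 of the 50 genes the LHR- mean is the highest of the 6 groups. That count was not made over all genes.

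Most of these genes were modestly lower in LHR+ cells without LH than in LHR- cells. In LHR+ against LHR- cells, 36 of the 50 genes were lower and 1 was higher, when 8.22% of all genes were lower and 10.4% higher. Only BUB1 was called, among 2.06% of all genes called lower and 2.57% called higher, and the median log2 fold change of the 50 was -0.38. BUB1, a kinase of the spindle checkpoint, read 567, 509 and 584 in the LHR+ arrays and 1306, 1398 and 1291 in the LHR- arrays, a change of -1.27 ± 0.13 (limma adjusted p = 2.33e-05), and every LHR+ value lay below every LHR- value. TTK, the checkpoint kinase also called MPS1, averaged 1203 ± 33.0 in LHR+ cells and 2105 ± 269.9 in LHR- cells (SD, n = 3 each), with a change of -0.80 ± 0.15. MYBL2, the transcription factor B-MYB, read 1084, 937 and 1048 in LHR+ cells and 780.1, 767 and 685 in LHR- cells, a change of 0.46 ± 0.13 (adjusted p = 0.0278), and was the single gene of the group that was higher. BUB1 stayed the one gene called when any single LHR+ or LHR- array, LHR- replicate 2 included, was left out. No gene of the group was called higher by limma or by the same contrast with unmoderated variances, with 1 gene at an unadjusted p under 0.05 in that direction.

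After 1 h of LH the genes had hardly moved. HJURP, the chaperone that deposits CENPA at centromeres, and ESPL1, the protease separase that cleaves cohesin, were the only 2 of the 50 that were lower (4% of the group, against 0.303% of all genes lower and 0.561% higher), with log2 changes of -0.57 ± 0.13 and -0.48 ± 0.10 (adjusted p = 0.0924 and 0.039). None of the 50 was called in either direction, when 0.0303% of all genes were called lower and 0.293% higher; at an unadjusted p under 0.05, limma gave 4 lower and 0 higher, and the contrast with unmoderated variances also called 0. The median log2 change was -0.09.

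After 4 h of LH most of the group was lower. In LH4 against LHR+ cells, 42 of the 50 genes were lower (84%, against 5.97% of all genes) and 24 of them were called (48%, against 0.925% of all genes), with a median log2 change of -0.87, while the median over all genes was -0.011. No member was higher at 4 h, when 4.9% of all genes were higher and 1.3% called higher; unmoderated variances gave 0 as well, and 0 rose at an unadjusted p under 0.05. The step lay between 1 h and 4 h: against LH1, 39 of the 50 were lower in LH4 (4.21% of all genes lower, 4.4% higher) and 19 were called lower, among 0.951% of all genes called lower and 0.839% called higher. By the probe sets used, the 8 genes without a difference past the threshold at 4 h were BUB3, MAD2L1, ZWINT, INCENP, CCNA2, CDC25B, MYBL2 and SMC2.

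**Figure D2:**
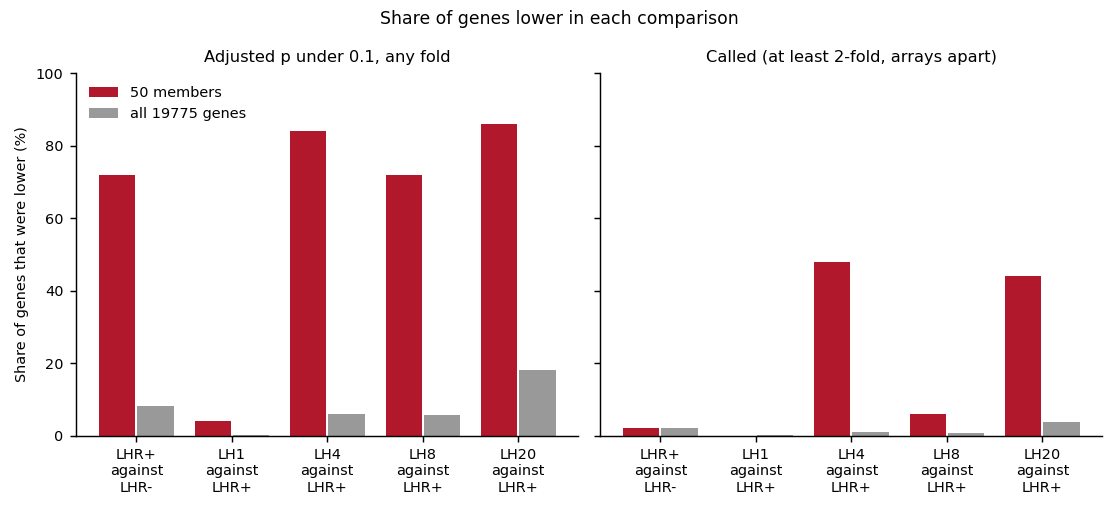
Bars give the share of genes (percent) that were lower in each comparison, for the 50 members (red) and for all 19775 genes (grey), at any fold on the left and under the stricter call on the right. At 4 h of LH 84% of the members were lower against 5.97% of all genes, and 48% were called against 0.925%.

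By 8 h part of the fall had been regained. Against LHR+, 36 of the 50 genes were lower in LH8 (5.73% of all genes lower, 5.19% higher) but only BUB1, SPC25 and MKI67 were called (0.728% called lower and 1% called higher over all genes), and the median log2 change was -0.49. Against LH4 directly, 22 genes were higher in LH8 and 1, MYBL2, was lower, when 3.97% of all genes were higher and 4.08% lower. With only the LH4 and LH8 arrays fitted, NUF2, CENPE, CENPI, CCNB1, CDK1, TOP2A, HJURP, RACGAP1 and MYBL2 no longer passed the adjusted p. RACGAP1 also fell short without any single LH4 array, LH8 replicate 1 or LH8 replicate 3. CDK1 did so without LH4 replicate 1, LH4 replicate 3 or any single LH8 array. TOP2A fell short without LH4 replicate 1 or 2, and NUF2 without LH4 replicate 1. NDC80, CENPI and ASPM were called higher in LH8, among 0.657% of all genes called higher and 0.652% called lower. This count of 3 was 6 when the array medians were set equal, 1 with the mean of all probe sets of a gene, and 5 without LH4 replicate 3 or LH8 replicate 2. Of the 42 genes that were lower at 4 h, 22 (52.4%) had risen by 8 h, and of the other 1138 genes of the array that were lower at 4 h, 338 (29.7%) had. Expressed as a share of the log2 fall at 4 h, the 42 genes had regained a median of 46.0% at 8 h, between -40.7% and 78.2%, and the other 1138 genes a median of 44.6%. Because the LH4 arrays enter both the fall and the rise, these shares are descriptions and carry no test. Of the 22 genes that rose, 18 were still lower than in LHR+ cells at 8 h. A further 20 of the 42 had no difference past the threshold between 4 h and 8 h.

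**Figure D3:**
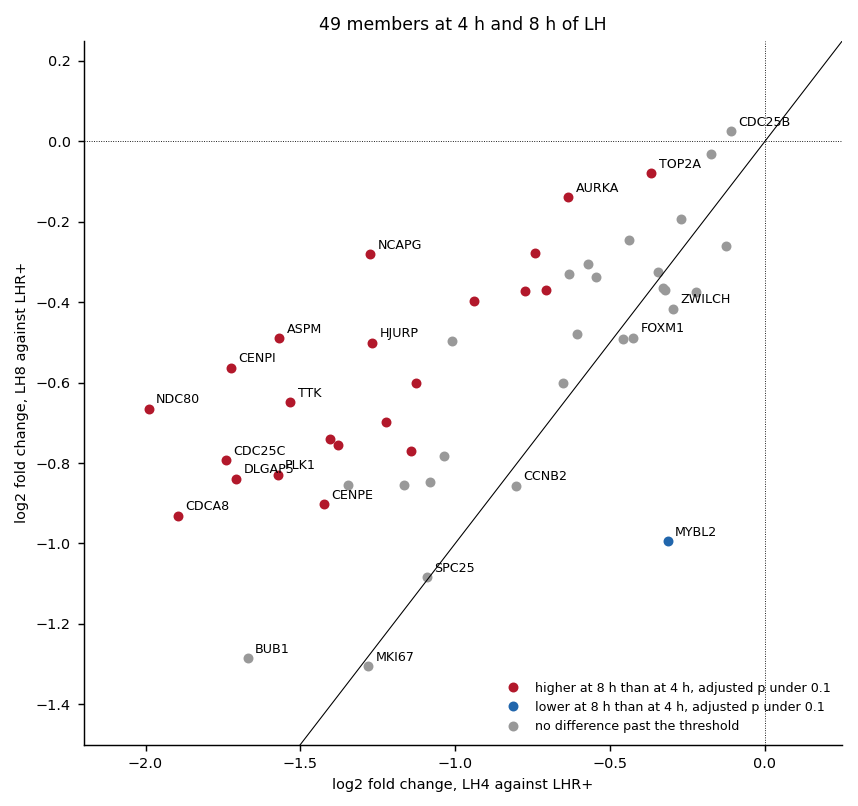
Each point is a gene, placed by its log2 fold change against LHR+ at 4 h (x axis) and 8 h (y axis); the line marks equal change and INCENP, which read near background, is left out. The 22 genes that were higher at 8 h than at 4 h (red) lie above the line, while SPC25, MKI67, CCNB2 and FOXM1 lie near the line and MYBL2 (blue) below it.

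At 20 h the group was low again. Against LHR+, 43 of the 50 genes were lower in LH20 (86%, against 18% of all genes lower and 16% higher), 1 was higher, and 22 were called lower (44%, against 3.88% of all genes called lower and 3.83% called higher), with a median log2 change of -0.82. Against LH8, 28 genes were lower in LH20 and 1 higher, when 13.5% of all genes were lower and 12.1% higher. MYBL2 alone was called in that step, in which 2.23% of all genes were called lower and 2.36% higher; HJURP joined it without LH8 replicate 2, and MKI67 without LH8 replicate 3. None of the 50 was called higher at 20 h by limma with moderated or unmoderated variances, with 1 gene at an unadjusted p under 0.05. The genes called at 4 h and at 20 h overlapped in 18, which is 18 of the 24 called at 4 h and 18 of the 22 called at 20 h; both comparisons use the same 3 LHR+ arrays. ZWILCH, CCNB2, FOXM1 and MYBL2 were called only at 20 h. TTK, BUB1B, CENPI, CDC25C, ASPM and NCAPG were called only at 4 h. In 29 genes the lowest of the 6 group means was at 4 h, in 20 at 20 h and in 1 at 8 h. Neither these counts nor the overlap of calls was set beside the same counts over all genes. INCENP, CDC25B and SMC2 were lower at no LH time by the probe sets used, but a second probe set of SMC2 was lower at 4, 8 and 20 h.

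**Figure D4:**
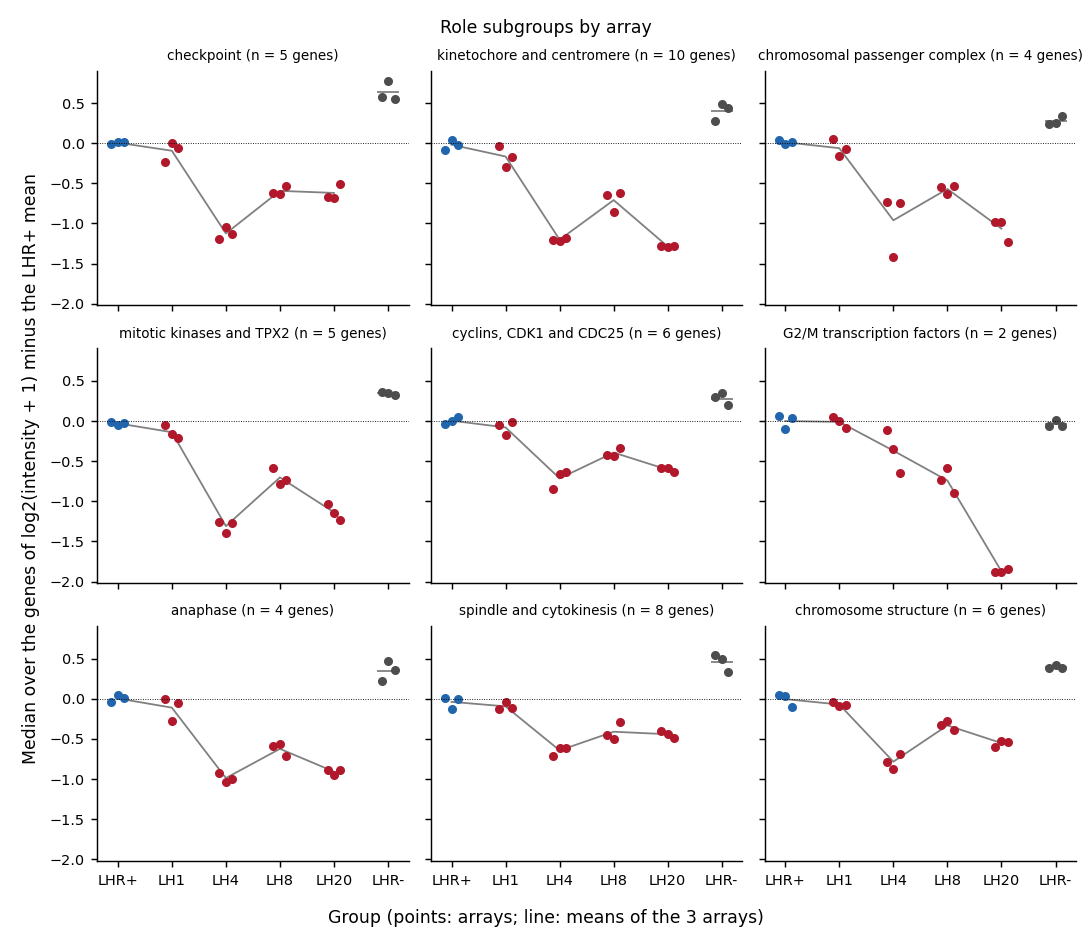
Each panel is a role subgroup, and each point an array, placed by the median over the subgroup's genes of log2(intensity + 1) minus the LHR+ mean; lines join group means. In 8 of the 9 subgroups LH8 lies above LH4, and the G2/M transcription factors fall at each step.

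In the spindle checkpoint, 3 of 5 genes were lower at 4 h and all 3 were called. BUB1 read 567, 509 and 584 in the LHR+ arrays, 425, 529 and 537 in LH1, 172, 165 and 183 in LH4, 234, 182 and 271 in LH8 and 172, 189.6 and 165 in LH20. The LH4, LH8 and LH20 values all lay below the LHR+ and LH1 values, and BUB1 was called at 4 h (-1.67 ± 0.13, adjusted p = 2.18e-06), at 8 h (-1.28 ± 0.13) and at 20 h (-1.65 ± 0.13). BUB1B, the checkpoint protein BUBR1 that binds and inhibits CDC20, read 2718, 2799 and 2818 in the LHR+ arrays, 2833, 2805 and 2775 in LH1, 1213, 1342 and 1267 in LH4, 1784, 1798 and 1914 in LH8 and 1455, 1369 and 1349 in LH20. Its LH8 arrays lay between the other groups, above all LH4 and LH20 values and below all LHR+ values, and it was called at 4 h (-1.13 ± 0.07) while the 20 h change of -0.9978 fell just short of 2-fold and passed it without LHR+ replicate 1 or LH20 replicate 1. TTK had 1188, 1240.3 and 1179 in the LHR+ arrays, 958, 1283 and 951 in LH1, 336, 496 and 429 in LH4, 783, 715 and 804 in LH8 and 755, 747 and 847 in LH20. It had regained 57.7% of its log2 fall at 8 h, and its LH20 values overlapped those of LH8. MAD2L1, which binds CDC20 as MAD2, read 4418, 3533 and 4385 in the LHR+ arrays, 3479, 4113 and 3153 in LH1, 3406, 3952 and 3911 in LH4, 3235, 3584 and 3431 in LH8 and 3299.6, 3033 and 3039.7 in LH20, with LH4 and LHR+ overlapping, a change at 4 h of -0.13 ± 0.14 (95% interval -0.42 to 0.17) and a lower level at 20 h (-0.39 ± 0.14, adjusted p = 0.0467). BUB3, a partner of BUB1 and BUBR1 at kinetochores, changed by -0.17 ± 0.07 at 4 h, past no threshold, and by -0.19 ± 0.07 at 20 h, where it was lower; the 4 other bright probe sets of BUB3 gave -0.34, -0.11, 0.03 and 0.09 at 20 h.

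The kinetochore and centromere held the deepest fall at 4 h. NDC80, which couples kinetochores to microtubules, read 2477, 2785 and 2939.6 in the LHR+ arrays, 2741, 2088 and 2460.3 in LH1, 669, 662 and 728 in LH4, 1767, 1441 and 1999 in LH8 and 1105, 1109 and 1034 in LH20. Its LH4 arrays were the lowest of all and stood apart from every other group, its LH8 arrays lay between LH4 and LHR+, and LH20 lay below LH8. The log2 change was -1.99 ± 0.12 at 4 h (adjusted p = 1.94e-07), 1.33 ± 0.12 for LH8 against LH4 (adjusted p = 4.62e-05) and -1.33 ± 0.12 at 20 h, so that 66.6% of the fall had been regained at 8 h. NUF2 and SPC25, its partners in the same complex, were also called at 4 h and 20 h: NUF2 had log2 changes of -1.14, -0.77 and -1.31 at 4, 8 and 20 h, and SPC25 of -1.09, -1.08 and -1.53. SPC25 averaged 258 ± 31.1 in LH8 and 257 ± 35.6 in LH4 cells, with overlapping arrays and 0.7% of its fall regained, and was called at all 3 times, as were BUB1 and MKI67. Its 8 h call was lost without LHR+ replicate 3 (-0.99) or LH8 replicate 1 (-0.98).

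CENPI, a subunit of the constitutive centromere-associated network, read 341, 383 and 381 in the LHR+ arrays, 439, 342 and 309.7 in LH1, 159, 79.5 and 107 in LH4, 316, 254 and 191 in LH8 and 199.7, 198 and 198 in LH20. The LH4 arrays were the lowest and the LH8 arrays overlapped those of LH20. The rise from 4 h was called (1.16 ± 0.23, adjusted p = 0.0101), but the 3 LH8 arrays were spread widely and the call was lost without LH4 replicate 2 (0.93) or LH8 replicate 1 (0.988), and when only the LH8 and LH4 arrays were fitted (adjusted p = 0.189). CENPE, the kinetochore motor, and CENPF, a large kinetochore protein of G2 and mitosis, were called at 4 h (-1.42 and -1.22) and at 20 h (-1.38 and -1.17), and each was higher in LH8 than in LH4 (0.52 and 0.52). CENPA, the centromeric histone H3 variant, fell to a mean of 181 ± 27.5 in LH20 cells, against 537 ± 86.8 in LHR+ cells (SD, n = 3 each; -1.56 ± 0.14), and its 4 h call was lost without LHR+ replicate 2 (-0.95). HJURP, its chaperone, had regained 60.5% of its 4 h fall at 8 h and was called at 4 h (-1.27) and 20 h (-1.36).

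ZWILCH, a subunit of the Rod-ZW10-Zwilch complex of the outer kinetochore, was called at 20 h only. It read 3329, 3913 and 3284 in the LHR+ arrays, 3489.7, 3172 and 3381 in LH1, 2945, 2834 and 2768 in LH4, 2655, 2598 and 2608 in LH8 and 1479.7, 1690.1 and 1590.4 in LH20. The change at 4 h was -0.30 ± 0.08, that at 8 h -0.42 ± 0.08 and that at 20 h -1.14 ± 0.08 (adjusted p = 1.92e-07), and the LH20 arrays lay below all others. ZWINT, which links ZW10 to the kinetochore, read 3747, 3275 and 3096 in the LHR+ arrays, 3336, 4591 and 2940.2 in LH1, 2713, 3064 and 2875 in LH4, 2561, 2721 and 2507 in LH8 and 2355, 2371 and 2093 in LH20, and was lower at 20 h (-0.57 ± 0.16, adjusted p = 0.0141) but not past the threshold at 4 h (-0.22 ± 0.16).

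Of the chromosomal passenger complex, which corrects faulty attachments and guides cytokinesis, AURKB and CDCA8 were called at 4 h and 20 h. CDCA8, the borealin subunit, read 2234, 2413 and 2046 in the LHR+ arrays, 2115, 1912 and 1861 in LH1, 532, 612 and 655 in LH4, 1281, 1051 and 1181 in LH8 and 641, 644 and 588 in LH20. LH4 and LH20 arrays were alike in range, and all LH8 values lay above both and below LHR+. The changes were -1.90 ± 0.10 at 4 h (adjusted p = 5.6e-08), -0.93 ± 0.10 at 8 h and -1.83 ± 0.10 at 20 h. AURKB, the kinase of the complex, had log2 changes of -1.17, -0.85 and -1.47 at 4, 8 and 20 h. BIRC5, or survivin, was lower at each time (-0.34, -0.33 and -0.66) and had regained 5.6% at 8 h. A second probe set of BIRC5, with a mean log2 intensity of 11.2, gave -0.90, -1.02 and -1.38 at 4, 8 and 20 h (adjusted p = 0.000461, 0.000227 and 2.99e-06). One with a mean log2 intensity of 12.33 gave -0.31, -0.37 and -0.66 at these times, and one at 8.19 gave -0.36, -0.59 and -1.14. Neither passed the adjusted p at 4 h. INCENP, the scaffold, read 38.7, 1.70 and 26.3 in the LHR+ arrays, 29.1, 47.0 and 35.8 in LH1, 14.2, 3.81 and 20.6 in LH4, 15.0, 33.1 and 40.2 in LH8 and 16.1, 44.5 and 12.4 in LH20. Those values are near background, scatter widely within groups, and passed no threshold, with a 95% interval of -2.15 to 1.55 for the 4 h change.

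Among the mitotic kinases, PLK1, which acts from mitotic entry to cytokinesis, read 715, 755 and 693 in the LHR+ arrays, 756, 651 and 683 in LH1, 261, 224 and 241 in LH4, 449, 418 and 354 in LH8 and 252, 231 and 288 in LH20. The LH4 and LH20 arrays overlapped, and LH8 stood between them and LHR+. PLK1 was called at 4 h (-1.57 ± 0.11, adjusted p = 6.89e-07) and at 20 h (-1.49 ± 0.11), and was higher in LH8 than in LH4 by 0.74 ± 0.11. TPX2, the activator and spindle anchor of Aurora A, and NEK2, a centrosome kinase, were also called at 4 h (-1.40 and -1.34) and 20 h (-1.14 and -1.22). AURKA, which encodes Aurora A, changed by -0.63 ± 0.07 at 4 h and had regained 78.2% at 8 h, when its change against LHR+ of -0.14 ± 0.07 passed no threshold. A probe set of AURKA nearly as bright as the one used, at a mean log2 intensity of 12.26, gave -0.80 at 4 h. It rose by 0.61 to 8 h (limma adjusted p = 0.0016), where its change of -0.19 passed no threshold. Another probe set of AURKA, with a mean log2 intensity of 10.53, gave -1.23 at 4 h and was lower at 8 h (-0.62, adjusted p = 0.0259). PLK4, the kinase of centriole duplication, read 1350.1, 1283 and 1284 in the LHR+ arrays, 1221, 1128 and 1059 in LH1, 991, 997 and 1149 in LH4, 968, 961 and 1108 in LH8 and 1014, 1027 and 1004 in LH20. It was lower by about the same amount at each time (-0.32, -0.37 and -0.36), with no rise at 8 h.

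Among the cyclins, CDK1 and the CDC25 phosphatases, CDC25C was called at 4 h and CCNB2 at 20 h. CDC25C, a phosphatase that activates CDK1, read 702, 701 and 749 in the LHR+ arrays, 733, 513 and 804 in LH1, 242, 182 and 222 in LH4, 436, 356 and 456 in LH8 and 377, 341 and 417 in LH20. All LH8 values lay above all LH4 values, the change at 4 h was -1.74 ± 0.16 (adjusted p = 7.29e-06) and the rise to 8 h was 0.95 ± 0.16, although the mean over its probe sets gave -0.04 for that step. Dimmer probe sets of CDC25C, with mean log2 intensities of 6.04 and 4.84, gave 0.58 and -1.66 there (limma adjusted p = 0.0765 and 0.0942). CCNB2, a B-type cyclin, read 3052, 3111 and 3244 in the LHR+ arrays, 2982, 2637 and 3058 in LH1, 1818, 1808 and 1760.4 in LH4, 1689, 1726 and 1779 in LH8 and 1419.7, 1392 and 1357 in LH20, with LH4 and LH8 overlapping and every LH20 array below both. It was lower at 4 h (-0.80 ± 0.07) and 8 h (-0.86 ± 0.07) and was called at 20 h (-1.17 ± 0.07, adjusted p = 4.03e-08). CCNB1, the other mitotic B-type cyclin, had regained 52.1% of a change of -0.78, and CDK1 47.4% of a change of -0.71. The 3 other bright probe sets of CDK1 gave -0.03, -0.06 and 0.03 at 8 h against LHR+, and rises from 4 h to 8 h of 0.79, 0.68 and 0.79 (adjusted p = 0.00486, 0.0303 and 0.0419). CCNA2, the cyclin of S phase and G2, was not past the threshold at 4 h (-0.33 ± 0.12) and was lower at 8 h (-0.37) and 20 h (-0.42). A second probe set of CCNA2, with a mean log2 intensity of 9.84, was lower at 4 h (-1.19, adjusted p = 0.000189) and higher in LH8 than in LH4 (0.74, adjusted p = 0.0132). CDC25B read 7355, 7869.7 and 8064 in the LHR+ arrays, 7595, 6763 and 7997 in LH1, 6917, 7351 and 7329 in LH4, 7693, 8211 and 7787 in LH8 and 9041, 9456 and 9867 in LH20. It did not pass the threshold at 4 h (-0.11 ± 0.08) or 8 h (0.03 ± 0.08), and at 20 h it was the single gene of the 50 that was higher (0.28 ± 0.08, adjusted p = 0.0146).

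Both G2/M transcription factors were called at 20 h and not before, although MYBL2 was also called at 8 h without LHR+ replicate 2, LH8 replicate 1 or LH8 replicate 2. MYBL2 read 1084, 937 and 1048 in the LHR+ arrays, 1080.0, 1112 and 975 in LH1, 1025, 788 and 686 in LH4, 519.9, 554 and 466 in LH8 and 178, 166 and 180.2 in LH20. Its LH4 arrays overlapped LHR+, its LH8 arrays lay below all LHR+, LH1 and LH4 arrays, and its LH20 arrays were lower still. The log2 change was -0.31 ± 0.13 at 4 h (not past the threshold), -0.99 ± 0.13 at 8 h and -2.54 ± 0.13 at 20 h (adjusted p = 1.82e-08), the largest fall of any of the 50 genes at any time. The change from 4 h to 8 h was -0.68 ± 0.13, a fall where 22 other members rose, and that from 8 h to 20 h was -1.55 ± 0.13. FOXM1, a forkhead factor of G2/M genes, read 2518, 2338 and 2521 in the LHR+ arrays, 2505, 2258 and 2283 in LH1, 2096, 1969 and 1484 in LH4, 1744, 1993 and 1547 in LH8 and 1025, 1108 and 1067 in LH20, and its changes were -0.43 ± 0.12, -0.49 ± 0.12 and -1.20 ± 0.12 at 4, 8 and 20 h.

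Of the genes of anaphase, ESPL1 read 970.1, 1006 and 896 in the LHR+ arrays, 734, 633 and 692 in LH1, 360.1, 378 and 363 in LH4, 571, 609 and 523 in LH8 and 422, 444 and 455 in LH20. Its LH1 arrays already lay below LHR+ and its LH8 arrays above LH4 and LH20. The change was -1.38 ± 0.10 at 4 h (adjusted p = 6.82e-07) and -1.12 ± 0.10 at 20 h. PTTG1, the securin that inhibits separase, read 5132, 5862 and 5368 in the LHR+ arrays, 5402, 5348 and 5489 in LH1, 3993, 3902 and 4004 in LH4, 4034, 3904 and 3685 in LH8 and 3164, 3192 and 3346 in LH20, was lower at 4 h (-0.46) with LH4 and LH8 overlapping, and changed by -0.75 ± 0.07 at 20 h. CDC20, the activator of the anaphase-promoting complex, was called at 4 h (-1.04 ± 0.13) and 20 h (-1.09 ± 0.13), but the 4 h value sat at the 2-fold limit, and the call was lost without LHR+ replicate 3, LH4 replicate 2 or LH4 replicate 3 (as low as -0.98). UBE2C, the ubiquitin-conjugating enzyme of that complex, had regained 57.6% of a change of -0.94 at 8 h.

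In the spindle and cytokinesis subgroup all 8 genes were lower at 4 h. DLGAP5, a spindle protein also called HURP, read 2649.6, 2392 and 2770.4 in the LHR+ arrays, 2303, 2576 and 2503 in LH1, 747, 874 and 771 in LH4, 1439, 1295 and 1645 in LH8 and 1199.6, 1210.0 and 1056 in LH20, with LH4 lowest, then LH20, then LH8, and no overlap between LH4 and LH8. It was called at 4 h (-1.71 ± 0.10, adjusted p = 1.19e-07) and 20 h (-1.17 ± 0.10). ASPM, a spindle pole protein, read 2668, 2455 and 2969.8 in the LHR+ arrays, 2388, 1984 and 2419 in LH1, 825, 939.6 and 961 in LH4, 1805, 1679 and 2314 in LH8 and 1689.7, 1716 and 1639.9 in LH20, and the rise to 8 h was called (1.08 ± 0.12, adjusted p = 0.000164), although not without LH8 replicate 3 (0.94). The other bright probe sets of ASPM, with mean log2 intensities of 8.29 and 7.66, gave 0.59 and 0.77 in that step (limma adjusted p = 0.306 and 0.222). ECT2, the exchange factor that activates RhoA at the cleavage furrow, read 3483, 3589 and 2847 in the LHR+ arrays, 3428, 3736 and 3221 in LH1, 2217, 2614 and 2466 in LH4, 2382, 2881 and 3112 in LH8 and 2806, 2785 and 2897 in LH20. It was lower at 4 h (-0.44 ± 0.13), and its LH8 and LH20 values overlapped LHR+. RACGAP1, which binds ECT2 at the spindle midzone, had regained 62.6% at 8 h and differed by -0.15 ± 0.13 at 20 h, not past the threshold. ANLN, an actin-binding protein of the cleavage furrow, likewise passed no threshold at 20 h (-0.20 ± 0.12), although dimmer probe sets of ANLN and ECT2 were lower at 20 h (-0.48 and -0.83, adjusted p = 0.0888 and 0.0657). NUSAP1, a microtubule-binding protein, had regained 7.6% at 8 h, with changes of -0.65, -0.60 and -0.46 at 4, 8 and 20 h.

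Genes of chromosome structure lay at different ends of the 8 h range. MKI67, which encodes the Ki-67 antigen at the surface of mitotic chromosomes, read 2172, 2178 and 1863 in the LHR+ arrays, 2008, 2085 and 1740.4 in LH1, 834, 938 and 784 in LH4, 942, 899 and 688 in LH8 and 489, 455 and 412 in LH20. Its LH4 and LH8 arrays overlapped, all of them lay below LHR+ and LH1, and the LH20 arrays were lower than any other. The change was -1.28 ± 0.12 at 4 h, -1.30 ± 0.12 at 8 h and -2.19 ± 0.12 at 20 h (adjusted p = 4.03e-08), with -1.9% regained. The 3 other bright probe sets of MKI67 gave -1.78, -1.52 and -1.26 at 4 h, and in LH8 against LH4 they gave 0.73 (adjusted p = 0.0123), 0.23 and 0.05. NCAPG, a condensin I subunit, read 4046, 4036 and 3844 in the LHR+ arrays, 3897, 3338 and 3626 in LH1, 1574, 1662 and 1696 in LH4, 3144, 3300.4 and 3370.2 in LH8 and 2358, 2664 and 2611 in LH20, with LH8 above LH4 in every array, a change of -1.27 ± 0.07 at 4 h and 77.9% regained at 8 h. NCAPH, of the same condensin, was called at 4 h (-1.01 ± 0.17) and 20 h (-1.21 ± 0.17), and the 4 h call was lost without LHR+ replicate 1, LHR+ replicate 2 or LH4 replicate 2 (as low as -0.83). TOP2A, a DNA topoisomerase, changed by -0.37 ± 0.07 at 4 h and had regained 78.2% at 8 h, while its other bright probe set, with a mean log2 intensity of 12.36 beside 12.43, gave -0.47 at 4 h and 0.06 in LH8 against LH4 (adjusted p = 0.888). SMC2, a core subunit of both condensins, read 1280.1, 1153 and 909 in the LHR+ arrays, 965, 1289 and 1035 in LH1, 818, 906 and 1029 in LH4, 1019, 1101 and 800.4 in LH8 and 949, 861 and 802 in LH20, with overlapping groups and a 4 h change of -0.27 ± 0.16 (95% interval -0.62 to 0.08). A second probe set of SMC2, with a mean log2 intensity of 9.41, was lower at 4 h (-0.53, adjusted p = 0.0407), 8 h (-0.44, adjusted p = 0.0952) and 20 h (-0.67, adjusted p = 0.00254). SMC4, the partner of SMC2, changed by -0.63 ± 0.10 and was lower at 4, 8 and 20 h, and its other bright probe set gave -1.21 at 4 h and a rise to 8 h of 0.58 (adjusted p = 0.0159).

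By the probe sets used, the median share of the 4 h fall regained at 8 h was 51.0% for the 5 genes of chromosome structure that were lower at 4 h, 49.8% for 4 cyclin, CDK1 and CDC25 genes, 47.3% for 5 kinases and TPX2, 46.6% for 3 checkpoint genes, 45.3% for 8 spindle and cytokinesis genes, 36.6% for 9 kinetochore and centromere genes, 35.0% for 4 anaphase genes, 26.7% for 3 passenger genes and -14.7% for FOXM1, the transcription factor that was lower at 4 h. The ranges of the subgroups overlapped, and the kinetochore genes ran from -40.7% for ZWILCH to 67.3% for CENPI. Of the 42 genes, 15 regained over 50% and 6 were below 0%, namely ZWILCH, FOXM1, PLK4, PTTG1, CCNB2 and MKI67. From 4 h to 8 h these 6 changed by only -0.12 to -0.024 log2, none past the threshold, so a further fall is not shown. Where the 4 h fall was small, as for ZWILCH (-0.30), PLK4 (-0.32) and TOP2A (-0.37), the share rests on a small change.

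**Figure D5:**
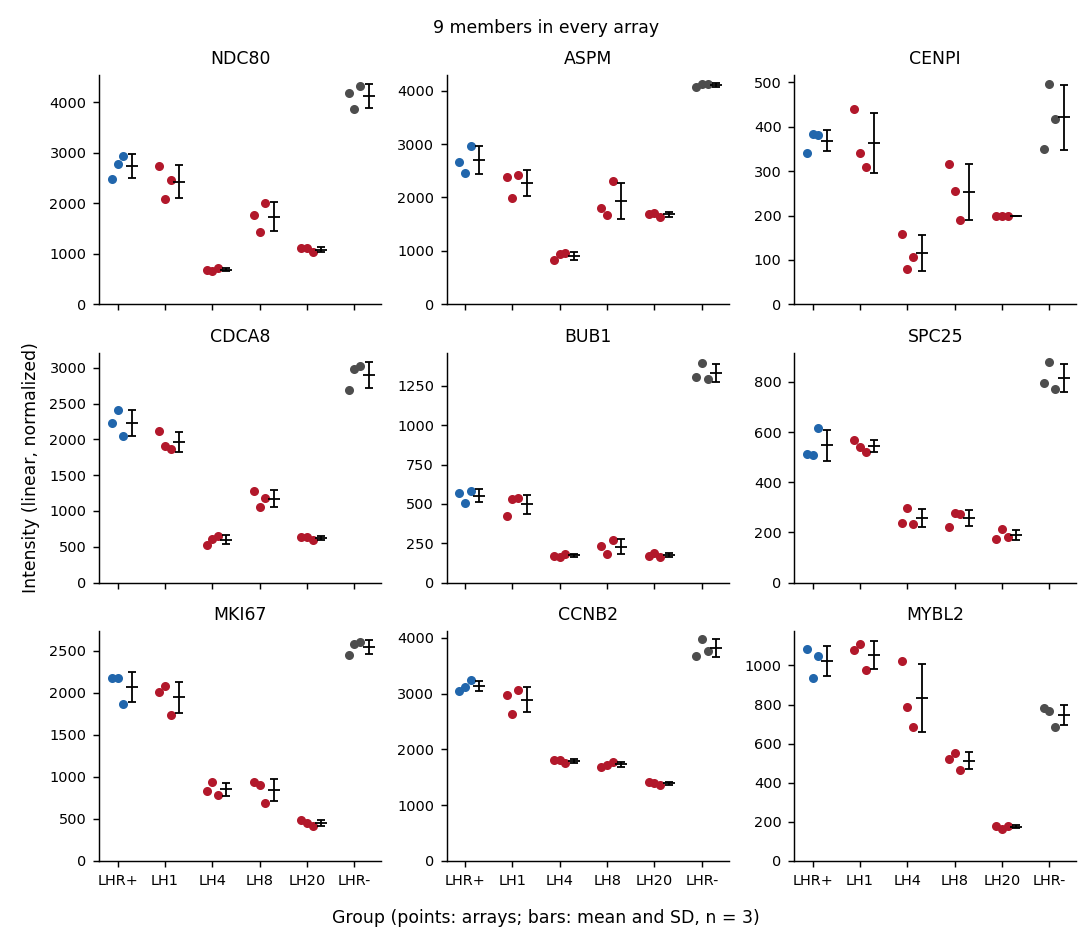
Points are linear intensities of single arrays in the 6 groups, with the mean and SD (n = 3) beside them. NDC80, ASPM, CENPI and CDCA8 were higher at 8 h than at 4 h of LH, BUB1, SPC25, MKI67 and CCNB2 were not past the threshold in that step, and MYBL2 was lower.

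Other mitotic genes, a list also chosen with earlier results of these data known, gave similar counts. Of 66 further genes of the kinetochore, the spindle motors and the mitotic apparatus, 55, 43 and 56 were lower at 4, 8 and 20 h and 23, 3 and 28 were called, with medians of -0.77, -0.49 and -0.93, and 8 were called higher in LH8 than in LH4. KIFC1, a minus-end-directed spindle motor, averaged 155 ± 15.5 in LH4 and 765 ± 71.2 in LHR+ cells (SD, n = 3 each; -2.29 ± 0.19, adjusted p = 3.57e-06), and was 1.36 ± 0.19 higher in LH8 than in LH4. PSRC1, a spindle protein, averaged 480.1 ± 42.4 in LH4 and 1890.1 ± 155 in LHR+ cells (-1.98 ± 0.13). CDCA3 was called at 4, 8 and 20 h (-1.60, -1.34 and -2.04). Of 37 genes of G1/S and DNA replication, 2, 0 and 12 were lower and 5, 3 and 5 were higher at 4, 8 and 20 h. Their medians were 0.05, 0.09 and -0.12. At 8 h, 2 were lower by limma at an unadjusted p under 0.05, and 1 passed the adjusted p with unmoderated variances. Over all genes, 5.97%, 5.73% and 18% were lower and 4.9%, 5.19% and 16% higher at these times. The shares of all genes called lower were 0.925%, 0.728% and 3.88%. E2F2 was the only gene of the list called lower at these times, at 4 h. It averaged 41.0 ± 3.24 in LH4 and 90.5 ± 8.52 in LHR+ cells (-1.12), dimmer than the median gene (mean log2 intensity of 7.55). Of 11 genes of the anaphase-promoting complex and FZR1, only ANAPC7 was called lower, at 20 h (-1.35 ± 0.11). Of 20 regulators of cell cycle promoters, E2F8 was called lower at 4 h, near background at 15.0 ± 0.91 in LH4 and 39.9 ± 3.69 in LHR+ cells (-1.36), and E2F7 at 20 h (-1.45), at 1353 ± 245 in LH20 and 3697 ± 675 in LHR+ cells. At 20 h, 4 of the 20 regulators were lower and 6 higher, when 18% of all genes were lower and 16% higher. Among those higher was CDKN1A, the CDK inhibitor p21, which averaged 1826 ± 265 in LH20 and 1218 ± 157 in LHR+ cells, a change of 0.58 ± 0.15 (adjusted p = 0.00812).

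Where a gene had another probe set brighter than the median gene, that probe set mostly moved the same way, but the size of the change and the share regained at 8 h varied between probe sets, as for BIRC5, AURKA, CDK1, CCNA2, ASPM, MKI67, TOP2A, SMC2 and SMC4. Values of these other probe sets come from a fit of all probe sets of the array, with p adjusted over them. At 4 h all 22 such probe sets, of 14 genes that were lower, had the sign of the probe set used and 18 passed the adjusted p, at 20 h 20 of 21 had the same sign, at 8 h 12 of 13, and for the 8 h rise 8 of 8, of which 4 passed. With the mean of all probe sets, 21 genes were called lower at 4 h (CENPF, CENPI and AURKB lost), 4 at 8 h (BUB1 lost, AURKB and CDC25C added) and 23 at 20 h. Dim probe sets did not always: 1 each for BUB1 and CENPI, with a mean log2 intensity of 2.93 and 2.95, had the opposite sign in LH4 against LH1, with adjusted p = 0.453 and 0.665.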

How the data were processed

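RNA from 18 SKOV-3 cultures (6 groups of 3) was amplified, biotinylated and hybridized to Affymetrix U133 Plus 2.0 arrays. The authors deposited a table of normalized linear intensities for 54675 probe sets; the labels name PLIER and the paper's methods RMA, with no version given in the sources used here. Intensities were used as log2(value + 1), so low values understate a fold change, with no further scaling and no filter. Probe sets listing 1 gene symbol (41097) were kept, and the one with the highest mean stood for each of 19775 genes; 1801 listing several symbols and 11777 listing none were left out.

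Group means were estimated for every gene from all 18 arrays together with limma 3.58.1 in R 4.3.3 (lmFit, eBayes), and p-values were adjusted by Benjamini-Hochberg over the 19775 genes of each comparison. limma's moderated contrast took the place of the ANOVA of the methods, which was run as an alternative. Their Mann-Whitney test was not used, since with 3 arrays against 3 its exact two-sided p cannot go below 0.1. The 3 arrays of a group, described as independent replicates, limit the precision. On simulated data for LH4 against LHR+ over 19775 genes, 49 of 50 genes changed 2.5-fold and 18 of 19575 unchanged genes were called. Of 50 genes changed 1.5-fold, 0 were called and 40 passed the adjusted p. The changed genes were drawn from those brighter than the median gene, with normal noise, so the simulation does not cover changes of dim genes. Members and lists were chosen with earlier results of these data known. Values in every array are given, per role subgroup, for the member with the largest called fall at 4 h, the largest rise from 4 h to 8 h, the smallest p at 20 h and the smallest change at 4 h. Alternatives covered the pseudocount, scaling, a filter on dim genes, the probe sets, the arrays fitted, plain ANOVA, the fold threshold, a replicate block and leaving out single arrays. Promoter sequences are from RefSeq (GRCh38.p14). Figures were drawn with matplotlib 3.10.9.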

Additional observations from a re-analysis of the deposited data

Results flagged for a closer look

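Between successive times of LH, 23 results were called, each by the direct limma contrast of the 2 groups. The LHR+ arrays enter these contrasts only through the shared estimate of the spread. The calls are those counted above for these steps. In LH4 against LH1 the log2 differences were -1.51 for BUB1, -1.14 for BUB1B, -1.34 for TTK, -1.81 for NDC80, -1.09 for SPC25, -1.22 for CENPE, -1.12 for CENPF, -1.69 for CENPI, -1.04 for AURKB, -1.71 for CDCA8, -1.52 for PLK1, -1.64 for CDC25C, -1.31 for TPX2, -1.31 for ASPM, -1.24 for NEK2, -1.63 for DLGAP5, -1.19 for MKI67, -1.14 for NCAPG and -1.03 for NCAPH. All 19 were lower at 4 h, and the difference for NCAPH did not reach 2-fold without LH1 replicate 1 or LH4 replicate 2. With a pseudocount of 16 AURKB and NCAPH were no longer called (17 called), and with the mean of all probe sets of a gene BUB1, CENPI and AURKB were not (16 called). In LH8 against LH4 NDC80 was higher by 1.33, CENPI by 1.16 and ASPM by 1.08. MYBL2 differed by -1.55 between LH20 and LH8.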

How the results depend on the processing

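With an adjusted p under 0.1 alone, without the 2-fold limit and the separation of the triplicates, 36 genes were lower and 1 higher in LHR+ against LHR-, 2 lower in LH1, 42 lower in LH4, 36 lower in LH8, and 43 lower and 1 higher in LH20, each against LHR+; 39 were lower in LH4 against LH1, 1 lower and 22 higher in LH8 against LH4, and 28 lower and 1 higher in LH20 against LH8. The count called higher in LH8 against LH4, 3, was 6 with equal array medians (CDCA8, CDC25C and NCAPG added) and 1 (NDC80) with the mean of all probe sets of a gene, and the median regained at 8 h was 51.9% and 38.3% under these alternatives. With the mean of all probe sets, 2 genes were called lower in LH20 against LH8, CCNB2 in LHR+ against LHR- reversed to 0.18 and CDC25C in LH8 against LH4 to -0.044. The CCNB2 mean took in -0.28, 0.37 and 0.46, from probe sets with mean log2 intensities of 11.17, 4.19 and 5.44. The CDC25C mean took in 0.95, 0.58 and -1.66, from probe sets with mean log2 intensities of 9.0, 6.04 and 4.84. Why the dim probe sets differed was not tested.

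Leaving out single arrays gave 22 to 24 genes called lower at 4 h, 2 to 4 at 8 h, 22 to 23 at 20 h, 18 to 20 in LH4 against LH1 and 1 to 1 in LHR+ against LHR-. The count called higher in LH8 against LH4 was 2 to 5, with 5 without LH4 replicate 3 or LH8 replicate 2 and 2 without LH8 replicate 3. That called lower in LH20 against LH8 was 1 to 2, and the share regained 40.9% to 46.4%. At 8 h the call of SPC25 was lost without LHR+ replicate 3 or LH8 replicate 1, and CENPE was added without LH8 replicate 3. Replicate numbers did not pair the arrays: deviations of arrays with the same number correlated between -0.022 and 0.054. With the replicate block, 24 genes were called lower at 4 h and 3 results for single genes of 252 lost their threshold. Over all alternatives, 3495 gene results kept direction and threshold, 283 kept direction only and 2 reversed. That total takes in 252 from dropping the fold limit and separation, which could lose none, and 252 from the filter on dim genes, which left fold changes unaltered. With only the 2 groups compared, 184 kept both and 68 direction only. With the mean of all probe sets, 212 kept both, 38 direction only and 2 reversed. Intensity alone limits INCENP, which read near background.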
